A study of Mus musculus with 6 samples.

Results

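Transcripts of the endothelial selectins and of the ligands of leukocyte integrins were followed in cultured endothelium from the small vessels of the mouse brain (brain microvascular endothelial cells, BMVECs). The members were chosen by gene symbol, 9 in all: Icam1, Vcam1, Sele, Selp, Madcam1, Icam2, Alcam, Cd99 and Cd99l2. Of these, 8 had a row among the 54532 genes of the expression table, and Cd99 was not analysed here. There were 3 libraries of cells given processed DEVD mIL-36β, a cytokine of the IL-1 family, at 100 ng/ml for 24 h. A further 3 libraries came from untreated cells, whose titles give neither a time nor a vehicle. Each untreated library name ends in 0 and each treated one in 24, for example A0 against A24. The 24 matches the stated hours of treatment, but the meaning of the 0 is not given. If it is also in hours, time in culture differed between the groups together with IL-36β. An effect of culture time was not tested. All cells were wild-type primary cultures grown to confluence from C57BL/6J brain vessel fragments after puromycin selection. Whether replicates are separate animals or cultures is not in the labels, so each p-value refers to library-to-library spread, which may be technical. Each library held 15180389 to 19544689 reads in genes.

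Leukocytes leave the blood in steps. E-selectin (Sele) and P-selectin (Selp) on the endothelium catch passing leukocytes and let them roll. The immunoglobulin-domain proteins ICAM-1, ICAM-2, VCAM-1 and MAdCAM-1 then bind leukocyte integrins and hold the cells, and ALCAM, CD99 and CD99L2 take part in adhesion and in passage through the vessel wall. In textbook accounts Icam1, Vcam1, Sele, Selp and Madcam1 are inducible in inflamed endothelium, often through NF-κB, while Icam2, Alcam, Cd99 and Cd99l2 are constitutive. These 2 classes are used below as background labels.

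Start-site sequences are shown for the 4 inducible members that have one in the RefSeq promoter table (build GRCm38.p6) and, for contrast, for the constitutive Cd99l2. In all, 6 of the 9 members had a promoter in that table, which runs from 250 bases before to 50 bases after the annotated start. Capitals mark matches to the NF-κB-type letters GGNNNTTCC on either strand. These letters were chosen after the sequences had been read.
Icam1, chr9:21015690-21015989, plus strand: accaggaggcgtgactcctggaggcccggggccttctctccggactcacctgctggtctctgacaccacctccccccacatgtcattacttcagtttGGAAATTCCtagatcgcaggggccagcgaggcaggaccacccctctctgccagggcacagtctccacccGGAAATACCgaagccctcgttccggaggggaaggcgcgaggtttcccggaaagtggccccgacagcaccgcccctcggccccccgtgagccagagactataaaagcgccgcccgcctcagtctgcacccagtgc
Sele, chr1:164047984-164048283, plus strand: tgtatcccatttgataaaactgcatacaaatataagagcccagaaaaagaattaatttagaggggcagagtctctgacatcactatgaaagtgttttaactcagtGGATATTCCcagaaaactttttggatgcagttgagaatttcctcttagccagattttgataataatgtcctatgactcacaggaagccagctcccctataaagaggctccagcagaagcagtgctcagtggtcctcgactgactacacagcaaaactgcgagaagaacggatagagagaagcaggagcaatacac
Selp, chr1:164115014-164115313, plus strand: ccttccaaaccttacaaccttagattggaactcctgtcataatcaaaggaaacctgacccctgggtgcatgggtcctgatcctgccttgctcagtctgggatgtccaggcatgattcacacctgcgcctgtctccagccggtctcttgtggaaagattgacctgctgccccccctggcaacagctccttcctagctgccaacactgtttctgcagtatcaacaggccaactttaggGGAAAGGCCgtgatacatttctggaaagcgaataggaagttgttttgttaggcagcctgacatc
Madcam1, chr10:79664309-79664608, plus strand: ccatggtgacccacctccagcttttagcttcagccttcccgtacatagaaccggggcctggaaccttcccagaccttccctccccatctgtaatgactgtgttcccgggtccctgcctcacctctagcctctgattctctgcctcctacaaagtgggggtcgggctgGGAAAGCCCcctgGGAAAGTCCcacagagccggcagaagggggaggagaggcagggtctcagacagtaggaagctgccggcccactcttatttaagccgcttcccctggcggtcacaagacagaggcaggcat
Cd99l2, chrX:71492800-71493099, minus strand: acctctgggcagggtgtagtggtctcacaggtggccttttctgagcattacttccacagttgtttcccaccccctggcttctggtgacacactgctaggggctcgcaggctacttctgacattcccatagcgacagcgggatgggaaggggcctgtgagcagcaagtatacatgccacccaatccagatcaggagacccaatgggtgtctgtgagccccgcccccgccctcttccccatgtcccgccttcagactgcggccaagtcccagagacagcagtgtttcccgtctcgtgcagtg
The letters GGNNNTTCC occurred 2 times in the Icam1 window, with first bases at -153 and -84 from the annotated start. For Icam1 that RefSeq start lies upstream of the gene start given further on. The Sele window held 1 match, at -145, and the Selp window 1 match, at -14. The Madcam1 window held 2 matches, at -83 and -70, and both also fell within a match to the longer NF-κB consensus. The windows of Icam1, Sele and Selp held 0 matches to that longer consensus. Those of Cd99l2 and Alcam held 0 matches to either pattern. Among all 32851 RefSeq windows, 18.5% held GGNNNTTCC and 8.46% held the longer consensus. The AP-1 letters TGANTCA, found in 7.81% of windows, occurred in the Sele and Selp windows. TATAAA, found in 13.6%, occurred at -49 in the Sele window. In the Icam1 window it occurred at 14, past the annotated start. These matches describe letters in a window and were not tested as binding sites.

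Whether IL-36β changes the adhesion surface of these cells was asked with limma on log2(FPKM + 0.5) across 12618 genes, and a Benjamini-Hochberg adjusted p under 0.05 was called. FPKM counts fragments per kilobase of gene length, scaled for the size of the library, so levels can be set side by side between genes. Icam1 and Sele rose with IL-36β, and Vcam1 was higher by a similar fold but did not pass the threshold. The rare Selp and Madcam1 were also higher in each IL-36β library than in each untreated library. The 3 measured constitutive members did not pass. Of the 8 members, 6 passed the filter on low values (FPKM of at least 0.5 in 3 libraries), and 2 of these 6 were called higher and 0 lower, where 0.166% of all genes tested were called higher and 0.0159% lower. The groups did not overlap, with IL-36β higher, in 3 of the 6 tested members, as they did in 8.95% of all genes tested. Over all 8 members this held for 5, against 5.57% of all genes with reads. The median log2 difference was 0.94 over the 6 tested members and 0.00 over all genes tested. The members were chosen with earlier results of these data known, so these contrasts with all genes are a description only.

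**Figure D1:**
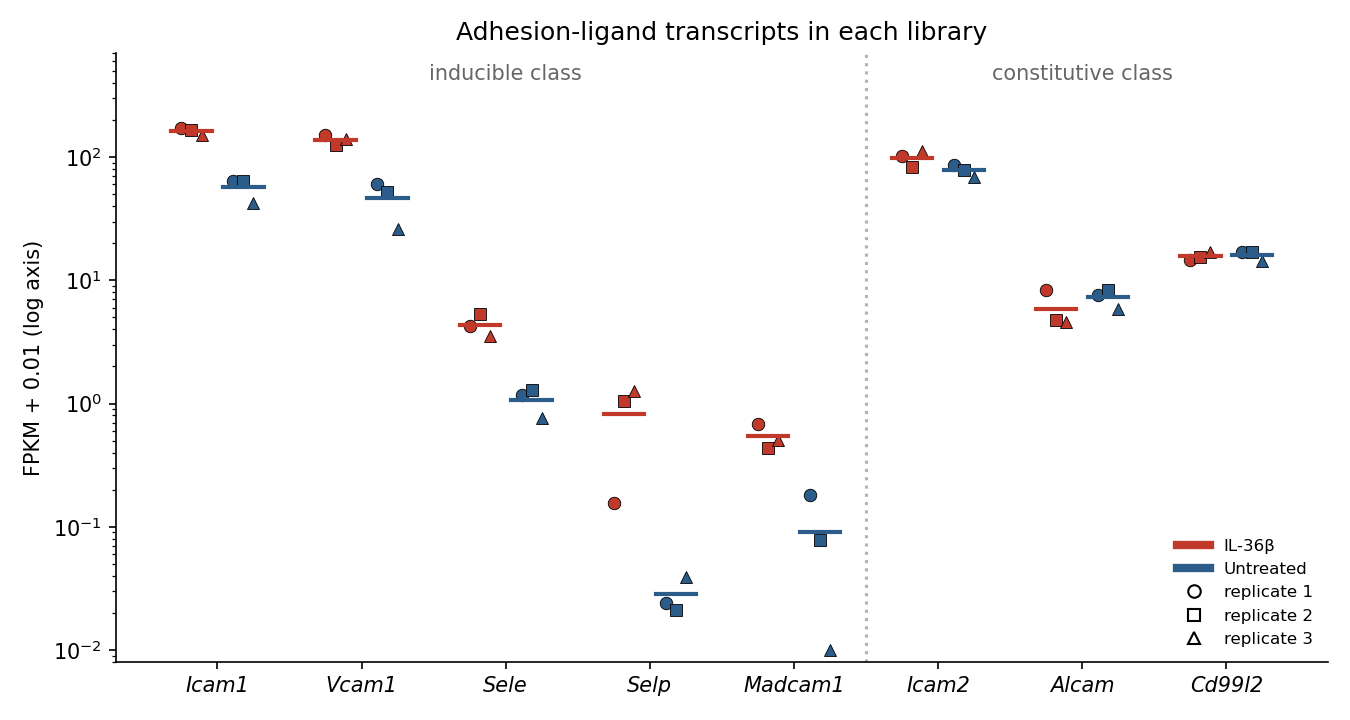
Level of each adhesion molecule as FPKM + 0.01 on a log axis, 3 IL-36β libraries (red, left) and 3 untreated libraries (blue, right), with symbols for the replicate number and bars for the group mean. The 2 groups do not overlap in the 5 inducible genes left of the dotted line and overlap in the 3 constitutive genes right of it.

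The selectins came at low levels. Sele (chromosome 1, 164048234 to 164057677, plus strand, GRCm38) had 4.25, 5.28 and 3.55 FPKM in IL-36β replicates 1 to 3, against 1.16, 1.27 and 0.759 FPKM in untreated replicates 1 to 3. All 3 IL-36β libraries were high, and the lowest of them was well above the highest untreated one. These levels rest on 192, 253 and 188 reads with IL-36β and on 55, 75 and 34 reads without. Sele rose 3.11-fold (95% confidence interval 2.29 to 4.22; limma adjusted p = 0.0322), higher in 3 of 3 libraries. The added 0.5 compresses this low gene, and the plain ratio of mean FPKM was 4.10. The call was lost whichever library was left out, with limma adjusted p of 0.0665 without untreated replicate 3 and up to 0.138 without IL-36β replicate 1.

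Selp lies on the same chromosome (164115264 to 164150026, plus strand) and was almost silent in untreated cells. It had 0.146, 1.05 and 1.26 FPKM in IL-36β replicates 1 to 3, against 0.0140, 0.0112 and 0.0295 FPKM in untreated replicates 1 to 3. In reads this was 10, 76 and 101 with IL-36β and 1, 1 and 2 without. IL-36β replicates 2 and 3 stood high, while IL-36β replicate 1 stood between them and the untreated libraries. The summed reads, corrected for library size factors, were 48.4-fold higher with IL-36β, with a 95% counting interval of 18.6 to 179 that leaves out the spread between libraries. Because 2 libraries reached 0.5 FPKM, Selp did not pass the filter. An exact two-sided permutation test of its log2(FPKM + 0.5) values gave p = 0.1, the smallest that 3 against 3 allows. On whole reads recovered from the FPKM, DESeq2 called Selp higher (adjusted p = 2.34e-06) and edgeR's quasi-likelihood test did not (adjusted p = 0.0557). Over all genes DESeq2 called 1.26% higher and 0.698% lower, and edgeR 0.244% higher and 0.0296% lower. The balance of the selectins differed between the IL-36β libraries: the FPKM of Sele was 29.1, 5.04 and 2.82 times that of Selp in replicates 1, 2 and 3.

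P-selectin is also a platelet protein. The 5 platelet markers summed to 0.420 to 1.15 FPKM in IL-36β libraries and 0.617 to 1.02 FPKM in untreated libraries, ranges that overlap, and none passed the filter.

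**Figure D2:**
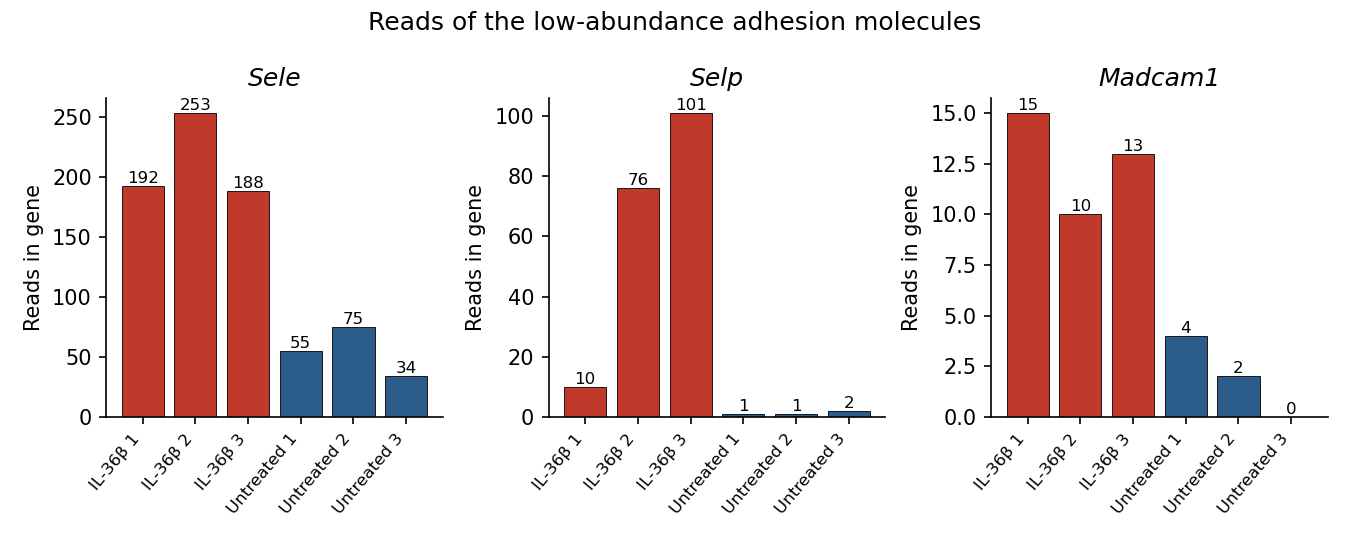
Reads in Sele, Selp and Madcam1 in each library, IL-36β libraries in red on the left and untreated libraries in blue on the right, each panel on its own linear axis from 0. Sele is high in all 3 IL-36β libraries, while Selp has 76 and 101 reads in IL-36β replicates 2 and 3 and 10 reads in replicate 1.

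Among the integrin ligands, Icam1 is the ligand of the leukocyte integrins LFA-1 and Mac-1 (chromosome 9, 21015985 to 21028817, plus strand). Its level was 173, 166 and 151 FPKM in IL-36β replicates 1 to 3, against 63.7, 63.8 and 42.6 FPKM in untreated replicates 1 to 3. Every IL-36β library stood more than the whole untreated range above the untreated libraries, and untreated replicate 3 was the lowest. Icam1 rose 2.91-fold (95% confidence interval 2.22 to 3.82; limma adjusted p = 0.0284). The call held in limma without untreated replicate 3 (adjusted p = 0.0258) and was lost when any of the other 5 libraries was left out (adjusted p of 0.0916 to 0.138), with log2 fold changes between 1.35 and 1.64 throughout. The authors' deposited table also lists Icam1, with a log2 fold change of 1.40, p = 0.0283 and an adjusted p of 0.999, a value that all 660 genes of that table share. That table's group means differ from the means of these libraries, so its fold is not the same quantity.

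Vcam1 encodes the ligand of the integrin VLA-4 (chromosome 3, 116109949 to 116129688, minus strand). It had 150, 126 and 140 FPKM in IL-36β replicates 1 to 3, against 60.9, 51.9 and 26.3 FPKM in untreated replicates 1 to 3. The groups did not overlap, and the untreated libraries were the more scattered of the 2 groups because untreated replicate 3 lay far below the others. The difference was 3.14-fold (95% confidence interval 1.98 to 5.00) and missed the threshold (limma adjusted p = 0.112). Without untreated replicate 3 the fold was smaller and the call passed (log2 fold change 1.29, limma adjusted p = 0.0448). On recovered reads DESeq2 called Vcam1 (adjusted p = 3.74e-09) and edgeR did not (adjusted p = 0.0557).

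Madcam1 encodes an addressin for the integrin α4β7 (chromosome 10, 79664559 to 79668537, plus strand) and was rare. It had 0.673, 0.424 and 0.498 FPKM in IL-36β replicates 1 to 3, against 0.172, 0.0688 and 0 FPKM in untreated replicates 1 to 3. These are 15, 10 and 13 reads with IL-36β and 4, 2 and 0 reads without. The IL-36β libraries lay close together and above all untreated ones, and the summed reads were 6.55-fold higher after size factors (95% counting interval 2.75 to 19.0). Madcam1 did not pass the filter, and the exact permutation test gave p = 0.1, again the smallest possible. The authors' deposited table lists it with a log2 fold change of 2.40, p = 0.00885 and an adjusted p of 0.999.

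The constitutive members showed smaller differences. Icam2, a second LFA-1 ligand that resting endothelium carries (chromosome 11, 106377656 to 106388075, minus strand), had 102, 82.8 and 112 FPKM in IL-36β replicates 1 to 3, against 85.9, 79.1 and 69.6 FPKM in untreated replicates 1 to 3. The groups overlapped, since IL-36β replicate 2 lay below untreated replicate 1. Its fold was 1.26 (95% confidence interval 1.00 to 1.58; limma adjusted p = 0.475). Alcam, the ligand of the lymphocyte receptor CD6 (chromosome 16, 52248996 to 52454074, minus strand), had 8.26, 4.73 and 4.61 FPKM in IL-36β replicates 1 to 3, against 7.60, 8.38 and 5.83 FPKM in untreated replicates 1 to 3. Here IL-36β replicate 1 stood among the untreated libraries and the other two below them, for a fold of 0.80 (0.55 to 1.17; limma adjusted p = 0.652). Cd99l2, a CD99-like protein used in leukocyte passage (chromosome X, 71420060 to 71492849, minus strand), had 14.6, 15.4 and 17.0 FPKM in IL-36β replicates 1 to 3, against 16.9, 17.1 and 14.3 FPKM in untreated replicates 1 to 3. The groups were interleaved, with a fold of 0.98 (0.82 to 1.16; limma adjusted p = 0.925). Icam2, Alcam and Cd99l2 did not pass in limma, edgeR or DESeq2, and Icam2 alone among them was under 0.05 before adjustment in limma.

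**Figure D3:**
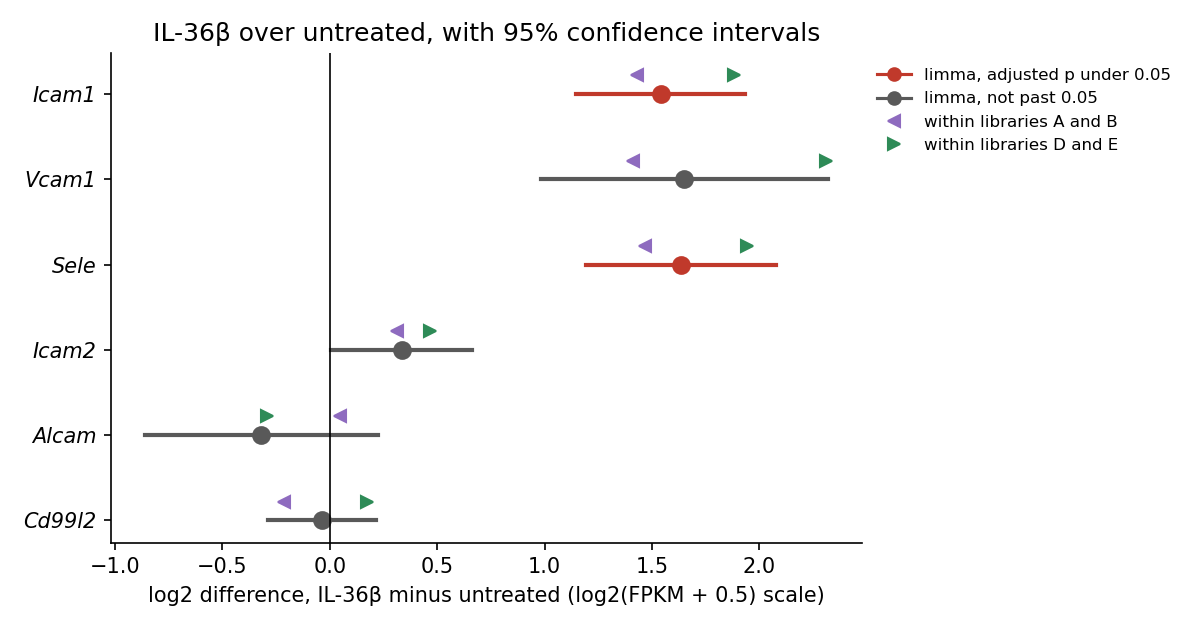
Log2 difference of IL-36β minus untreated for the 6 tested members, with the 95% confidence interval from limma (dots and bars, red where the adjusted p is under 0.05) and the values within libraries lettered A and B and within libraries lettered D and E (triangles). Icam1, Vcam1 and Sele lie between 1.54 and 1.65, and Icam2, Alcam and Cd99l2 between -0.32 and 0.33.

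The order of the ligands differed between the groups. With IL-36β Icam1 was the most abundant (163 ± 11.3 FPKM, SD, n = 3), then Vcam1 (139 ± 12.3 FPKM), then Icam2 (99.1 ± 15.0 FPKM), in this order in each of the 3 libraries and with no overlap between neighbours. In untreated cells Icam2 was the most abundant member (78.2 ± 8.19 FPKM, SD, n = 3), and it stood above Icam1 and Vcam1 in each of the 3 libraries. In untreated cells Icam1 (56.7 ± 12.2 FPKM) and Vcam1 (46.4 ± 17.9 FPKM) had overlapping ranges, although Icam1 was the higher in each of the 3 libraries. Below these 3 came Cd99l2 and Alcam in both groups. Alcam (5.87 ± 2.07 FPKM) and Sele (4.36 ± 0.873 FPKM) overlapped with IL-36β, whereas in untreated cells, at 7.27 ± 1.31 and 1.06 ± 0.270 FPKM, they did not. Selp and Madcam1 overlapped at the bottom of the order in both groups.

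Ratios within a library do not depend on how libraries were scaled. The Icam1 to Icam2 ratio of FPKM was 1.69, 2.01 and 1.34 in IL-36β replicates 1 to 3, against 0.742, 0.806 and 0.612 in untreated replicates 1 to 3. The Vcam1 to Icam2 ratio was 1.47, 1.52 and 1.25 with IL-36β, against 0.709, 0.656 and 0.378 without. Both ratios were above 1 in every IL-36β library and below 1 in every untreated library. They were 2.32-fold and 2.51-fold higher with IL-36β. For each the exact two-sided permutation test gave p = 0.1, the smallest possible with 3 against 3 libraries, and 0.15 after adjustment over the 3 ratios. The Vcam1 to Icam1 ratio was 0.851 ± 0.0877 with IL-36β and 0.796 ± 0.169 without (SD, n = 3 each), and its groups overlapped (exact permutation p = 0.7). The summed FPKM of Icam1, Vcam1, Icam2 and Madcam1 was 402 ± 25.5 with IL-36β and 181 ± 37.9 in untreated cells. The Icam2 share of that sum was 24.6 ± 2.92% with IL-36β and 43.9 ± 5.51% in untreated cells.

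**Figure D4:**
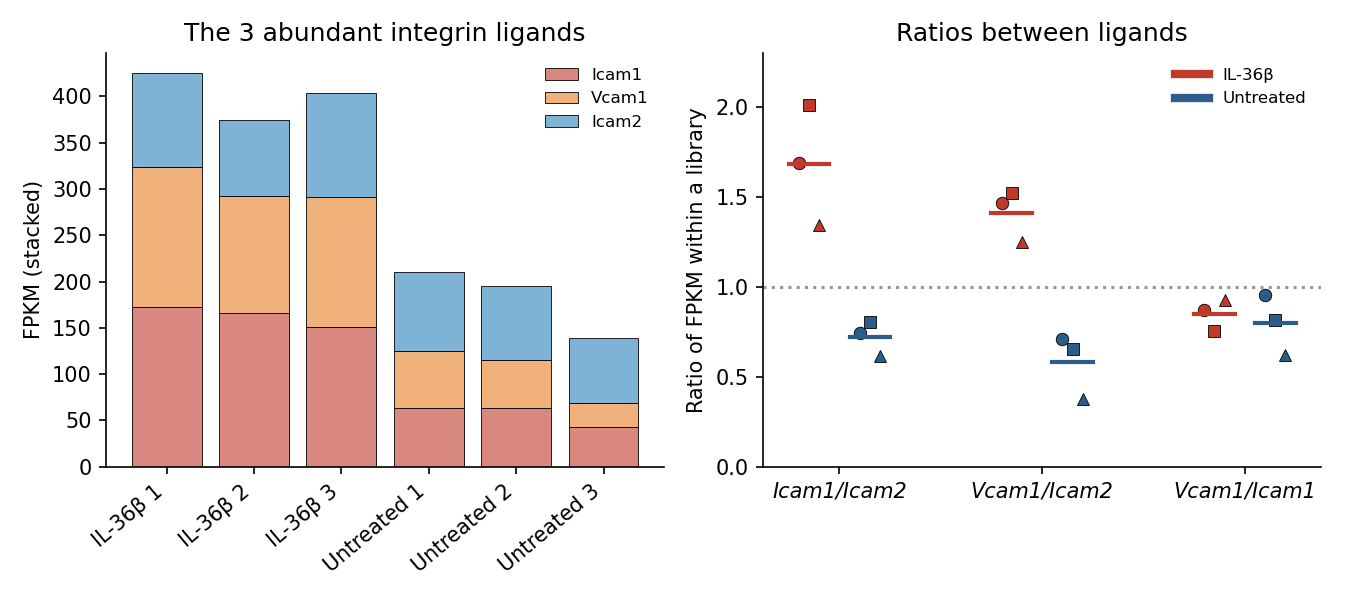
Left, stacked FPKM of Icam1, Vcam1 and Icam2 in each library. Right, ratios of FPKM within a library for IL-36β (red, left) and untreated (blue, right) libraries, where circles, squares and triangles are replicates 1, 2 and 3 and bars are means. The ratios to Icam2 lie above 1 with IL-36β and below 1 without, while Vcam1 to Icam1 overlaps.

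The libraries carry letters that split them into A and B (IL-36β replicate 1, untreated replicates 1 and 2) and D and E (IL-36β replicates 2 and 3, untreated replicate 3). The labels do not say what the letters mean, and this split was chosen with the data known. Between the sets 220 of the 12618 genes tested differed, 156 of them lower in D and E. No tested member was among them, which at so small a share says little about a set effect on 6 members. Alcam came nearest the threshold (0.66-fold in D and E; limma adjusted p = 0.0638), and Vcam1 had a similar fold (0.65-fold; limma adjusted p = 0.197). Within A and B the folds on the log2(FPKM + 0.5) scale were 2.70 for Icam1, 2.66 for Vcam1 and 2.77 for Sele. Within D and E they were 3.69, 4.97 and 3.84, a larger difference that was not tested. The groups of these genes do not overlap, so any split gives the same direction. Each set has 1 library on 1 side, IL-36β replicate 1 in A and B and untreated replicate 3 in D and E. Untreated replicate 3 was the lowest untreated library for each of these genes. With the set as a term limma called Icam1 (3.16-fold, adjusted p = 0.00456), Vcam1 (3.63-fold, adjusted p = 0.0151) and Sele (3.26-fold, adjusted p = 0.0164), where 0.674% of all genes tested were called higher. Selp was 1.26-fold higher within A and B and 3.12-fold higher within D and E on that compressed scale, and Madcam1 1.90-fold and 1.92-fold. Icam2 differed by 0.31 in A and B and 0.47 in D and E on the log2 scale, while the folds of Alcam (1.03 and 0.82) and Cd99l2 (0.86 and 1.13) changed direction between the sets.

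The endothelial label was checked with 10 markers, all of which passed the filter and summed to 2112 to 2855 FPKM in IL-36β libraries and 2022 to 2405 FPKM in untreated libraries. No marker of any list was called in limma, and DESeq2 called 1 endothelial marker higher, the tight-junction gene Cldn5 (267 ± 85.4 FPKM with IL-36β and 157 ± 20.9 FPKM without). Of the 10 endothelial markers 8 had a fold above 1, while Flt1 (0.81-fold) and Kdr (0.80-fold) were lower with IL-36β. The 9 microglia and leukocyte markers summed to 0.116 to 0.356 FPKM with IL-36β and 0.163 to 0.281 FPKM without, none passed the filter, and Cd3e was at 0. Of 10 mural cell markers 6 passed the filter, and the list summed to 375 to 827 FPKM with IL-36β and 422 to 1400 FPKM without. Most of it was Acta2, with 340, 772 and 498 FPKM in IL-36β replicates 1 to 3. In untreated replicates 1 to 3 Acta2 had 378, 675 and 1323 FPKM. Untreated replicate 3, the lowest untreated library for Icam1, Vcam1 and Sele, thus had the most Acta2. Among untreated libraries Cnn1 and Tagln were also highest there, while Pdgfrb and Myh11 were lowest. DESeq2 called 2 mural markers lower, the contractile genes Myh11 (3.52 ± 1.32 FPKM with IL-36β and 8.07 ± 3.11 FPKM without) and Cnn1 (16.9 ± 6.41 FPKM with IL-36β and 34.0 ± 9.22 FPKM without). Over all genes DESeq2 called 1.26% higher and 0.698% lower. Of the 6 tested mural markers 1 had a fold above 1, Tagln (17.7 ± 8.83 FPKM with IL-36β and 15.4 ± 8.54 FPKM without). Pdgfrb hardly differed (2.54 ± 0.743 and 2.63 ± 0.297 FPKM). The part of the mural markers in the adhesion results was not tested, and in bulk libraries fewer cells of a type and less RNA per cell cannot be told apart. Fibroblast markers summed to 0.804 to 2.88 FPKM with IL-36β and 0.561 to 1.23 FPKM without, astrocyte markers to 0.515 to 1.70 and 0.432 to 1.51 FPKM, with Aqp4, Slc1a3 and Gjb6 at 0. Oligodendrocyte markers summed to 0.0789 to 0.200 and 0.117 to 0.266 FPKM with Olig2 at 0, and choroid plexus and epithelial markers to 0.154 to 0.459 and 0.172 to 0.374 FPKM. The neuronal list, with Snap25 at 0, summed to 6.57 to 24.2 and 5.22 to 13.5 FPKM, nearly all of it Tubb3.

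Antisense genes overlap Icam1, Vcam1, Selp and Cd99l2 in the annotation. Each had 0 to 4 reads per library, where Icam1 had at least 2856 and Vcam1 at least 3591. The 2 genes opposite Selp had 0 reads in the IL-36β libraries and 1 read each in the untreated ones, 1 in replicate 1 and 1 in replicate 2, where Selp itself had 1 and 1 reads. Untreated replicate 3 had 2 reads in Selp and 0 in these genes. The kit was stranded, but how counting treated strand is not given. The few reads of Selp and of these genes in untreated replicates 1 and 2 therefore cannot be told apart.

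The rest of the adhesion and passage machinery was read from 7 lists with 65 genes, of which 48 were tested. None was called in limma or edgeR, 10 of the 48 (20.8%) had an unadjusted limma p under 0.05, where 10.4% of all genes did, and DESeq2 called 1 higher and 1 lower, to be read beside its shares over all genes of 1.26% higher and 0.698% lower. The median log2 difference of the 48 was 0.02, against 0.00 over all genes tested, and they ranged from -0.61 to 0.94.

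The junctional partners of leukocyte passage had 11 tested genes, with 7 folds above 1. Pecam1, the homophilic receptor that guides passing leukocytes, had 400 ± 57.3 FPKM with IL-36β and 362 ± 64.5 FPKM without (SD, n = 3 each), and Cdh5, which encodes VE-cadherin, 974 ± 135 and 956 ± 97.1 FPKM. In the list of rolling and anti-adhesive surface genes 6 were tested, and Glycam1 and Icam4 were at 0 in every library. Its most abundant members were Emcn, the sialomucin endomucin that hinders adhesion, at 439 ± 51.2 FPKM with IL-36β and 466 ± 18.9 FPKM without, and Cd34 at 107 ± 12.7 and 81.4 ± 13.7 FPKM. Cx3cl1, a chemokine anchored in the membrane that can itself hold leukocytes, was the gene DESeq2 called higher. It was chosen after its values were seen. Cx3cl1 had 18.1, 15.6 and 20.5 FPKM in IL-36β replicates 1 to 3, against 11.2, 7.75 and 8.69 FPKM in untreated replicates 1 to 3, a 1.92-fold difference (limma adjusted p = 0.106; DESeq2 adjusted p = 1.22e-05).

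Among the sheddases and their controls, 7 of 7 genes were tested. ADAM10 and ADAM17 can cut adhesion molecules from the cell surface, and their genes are named for that role after their values were seen. Adam10 had 41.0 ± 2.12 FPKM with IL-36β and 44.1 ± 5.49 FPKM without, and Adam17 had 14.7 ± 0.542 and 13.3 ± 1.68 FPKM. The most abundant were Adam9 (117 ± 12.9 and 141 ± 10.3 FPKM) and Adam15 (56.9 ± 9.27 and 49.5 ± 3.31 FPKM). Timp3, an inhibitor of metalloproteases including ADAM17, was the gene DESeq2 called lower and was named after its values were seen. It had 21.5, 27.6 and 28.1 FPKM in IL-36β replicates 1 to 3, against 39.4, 37.6 and 40.5 FPKM in untreated replicates 1 to 3, with no overlap. Its fold was 0.66 (limma adjusted p = 0.149; DESeq2 adjusted p = 0.00252), and with the library set as a term limma called it lower (adjusted p = 0.0403).

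The enzymes that build selectin ligands had 5 tested genes, with B4galt1 at 40.6 ± 3.73 FPKM with IL-36β and 39.9 ± 2.36 FPKM without, and Chst2 at 10.97 ± 1.81 and 12.8 ± 4.48 FPKM. The cytoskeletal anchors of the docking site, all 10 of them tested, were led by Msn, which links ICAM-1 and VCAM-1 to actin, at 450 ± 53.1 and 437 ± 39.9 FPKM, and Actn1 at 244 ± 43.8 and 263 ± 72.3 FPKM. The 7 genes of the Weibel-Palade body, the granule that stores P-selectin protein, were led by Angpt2 (1273 ± 220 and 937 ± 125 FPKM) and Cd63 (109 ± 2.44 and 102 ± 12.2 FPKM). Of 11 leukocyte counter-receptors 2 were tested, Itgb1 (776 ± 150 FPKM with IL-36β and 890 ± 116 FPKM without) and Itga4 (6.61 ± 2.22 and 9.83 ± 2.92 FPKM). The LFA-1 chains Itgal and Itgb2 and the selectin ligand Selplg stayed below the filter.

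Likeness to each called or near-called member was measured as the root mean square difference of log2(FPKM + 0.5) over the 6 libraries, each gene centred on its own mean and genes with provisional names left out. For Icam1 the nearest were Cxcl16 (0.135), Sele (0.138) and Ptges (0.175). Sele in turn had Icam1 (0.138), Icosl (0.182) and Ptges (0.211). The 3 genes nearest to Vcam1 were others, Lif (0.0805), Nfkbiz (0.158) and Zc3h12a (0.189). They share its low value in untreated replicate 3, a likeness by which they were chosen. That library was also the lowest untreated one for Icam1, Sele, Cxcl16, Ptges and Icosl. Lif had 7.63, 6.70 and 6.80 FPKM in IL-36β replicates 1 to 3, against 3.30, 2.54 and 0.987 FPKM in untreated replicates 1 to 3. Like Vcam1, Lif, Nfkbiz and Zc3h12a did not pass in the pooled limma test (adjusted p of 0.159, 0.131 and 0.110).

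**Figure D5:**
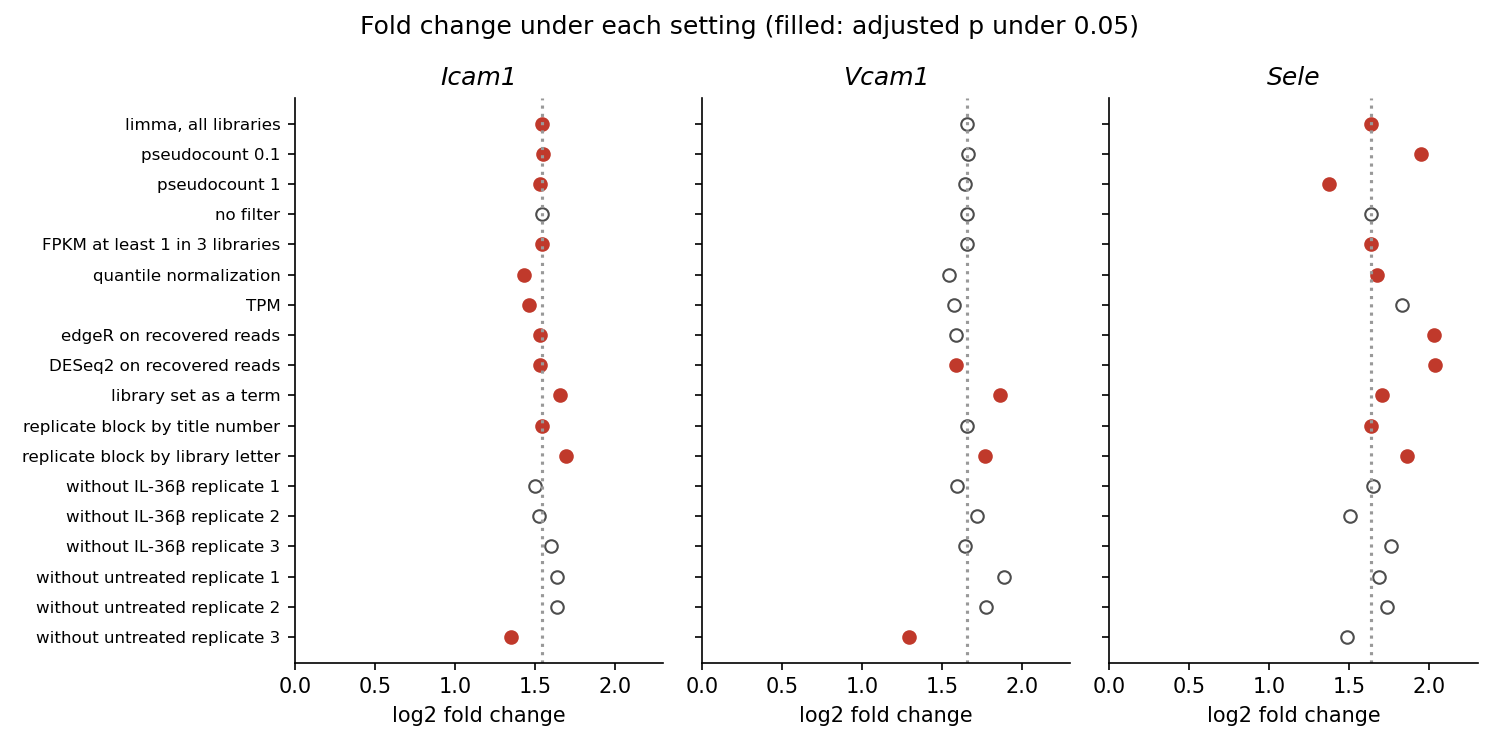
Log2 fold change of Icam1, Vcam1 and Sele, IL-36β over untreated, under each processing setting, filled where the adjusted p is under 0.05 and with a dotted line at the value from limma on all libraries. The log2 fold changes stay between 1.29 and 2.03 while the calls change with the setting.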

How the data were processed

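Per the labels' protocols, a stranded mRNA kit and a NextSeq instrument were used. Tools named in the submitters' processing notes are HISAT2 2.05, featureCounts 1.50-p3, fastp, StringTie and DESeq2 1.38.3, with the build GRCm38 and no settings; how counting treated strand is not given there. The authors deposited FPKM for 54532 genes. For 660 genes the authors also deposited raw counts, size-factor-scaled counts (a signal scale), log2 fold changes and p-values. Group means in that smaller table depart by over 1% from those of the libraries used here (594 genes with IL-36β, 573 untreated). A further 8 per-library columns match no sample label and were not used. Cd99 was not analysed here.

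FPKM times gene length, after 1 divisor per library, gave whole reads within 0.01 in 100% of values, and these equalled the deposited counts in all 660 genes. Counting intervals (exact, Clopper-Pearson) cover counting error only. At 1 kb of gene length 1 FPKM was 15.4 to 20.3 reads. Replicate pairs differed by more than sampling noise, with chi-square values of 11.0 to 40.5 times their degrees of freedom.

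Genes were tested two-sided in R 4.3.3 with limma 3.58.1 and a trended prior. Single values were tested by exact permutation (scipy 1.17.1). Checked on simulated reads for this comparison (5 runs, 200 of about 12408 genes changed), 60.9% of genes changed 2-fold were called, 93.3% of those changed 4-fold, and 0.0786% of the others. The simulated libraries were drawn independently, without the difference between libraries A and B and libraries D and E, so these rates may not carry over. edgeR 4.0.16 and DESeq2 1.42.0 ran on recovered reads. Other alternatives were pseudocounts, filters, scalings, the library set, replicate blocks and leaving out each library. Named by rule were all members, list genes past the limma threshold (0 genes) or else the 2 most abundant per list, and the 3 nearest genes. Cx3cl1, Timp3, Adam10, Adam17, Itgal, Itgb2, Selplg, genes at 0 and the single cell type markers given were named after their values were seen. Members and lists were chosen with earlier results of these data known.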

Additional observations from a re-analysis of the deposited data

How the results depend on the processing

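The calls were more sensitive to the processing than the folds. The count of genes called by limma, 23 with all libraries, was 15 with TPM, 102 with the library set as a term and 0 without a filter on low values, where 1751 of 23998 genes had an unadjusted p under 0.05. edgeR called 37 genes and DESeq2 269. Leaving out 1 library gave 2 to 8 calls, namely 6, 2 and 4 without IL-36β replicates 1, 2 and 3 and 4, 2 and 8 without untreated replicates 1, 2 and 3. With the replicate block by title number the count was 13, and with the block by library letter 78. The deviations of same-numbered libraries correlated at 0.21, -0.14 and 0.21, so the numbers were not taken to pair them. The 2 pairs that share a letter correlated at 0.21 (A, also the pair numbered 1) and 0.28 (D). The highest correlation, 0.39, was between IL-36β replicate 1 and untreated replicate 2, which share neither letter nor number. With the block by letter Vcam1 passed (limma adjusted p = 0.0282). Letters B and E each occur in 1 group only, so folds and calls under the block by letter rest on the A and D pairs alone. The block by title number changed no call of a member (limma adjusted p of 0.0357 for Icam1 and Sele and 0.113 for Vcam1).

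Without a filter Icam1 (log2 fold change 1.54) and Sele (1.64) lost their calls, and Sele also did so with TPM (1.83); the cause was not tested. Vcam1 passed with DESeq2 (1.59), with the set as a term (1.86) and without untreated replicate 3. It also passed with the block by letter (1.77), which uses the A and D pairs alone. When 1 library was left out, the log2 fold changes spanned 1.35 to 1.64 for Icam1, 1.29 to 1.89 for Vcam1 and 1.49 to 1.76 for Sele. Over all 17 alternatives adjusted p ran from 3.21e-17 to 0.138 for Icam1 (11 called), from 3.74e-09 to 0.348 for Vcam1 (4 called) and from 2.82e-10 to 0.143 for Sele (9 called). Icam2, Alcam and Cd99l2 were called under none of them. With 1 library left out, the log2 ratio of Icam1 to Icam2 differed by 1.07 to 1.37, and that of Vcam1 to Icam2 by 1.04 to 1.497. Both kept their direction in 8 of 8 alternatives. Leaving out a library could not reverse it, because both ratios were above 1 in every IL-36β library and below 1 in every untreated one. The ratio of Vcam1 to Icam1, 0.11 on the log2 scale, was -0.057 without untreated replicate 3 and up to 0.26 otherwise. Depth limits Selp and Madcam1, which rest on 4 and 6 reads over the untreated libraries.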
